A study of Mus musculus with 60 samples.

Results

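The whole hippocampus of mice was compared between a Swim group and a Homecage group, with 5 libraries in each, and every gene in that comparison is described here. The members were all 13686 genes of the authors' deposited table of whole Swim against whole Homecage, taken as 1 entry per gene identifier, out of 13923 genes found in any of the 5 deposited tables used. Both groups were wild type C57BL/6 mice at postnatal day 105, and poly(A)-enriched RNA was sequenced from the whole hippocampus. The reference mice are described only as Homecage, and the treated mice were sampled 45 min after the treatment. The labels do not say how long the mice swam, how warm the water was, or which sex they were. The series holds 60 libraries in 12 groups of 5 mice, and 4 other treated groups serve for comparison here: whole hippocampus after Restraint or Handling, and dorsal or ventral hippocampus after Swim, each set against Homecage of the same tissue.

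Swimming is a stressor for mice that activates hippocampal neurons and raises circulating glucocorticoids, and both signals reach the genome. Synaptic activity opens calcium and kinase pathways that act on transcription factors already bound near immediate early genes, so that these genes are transcribed within minutes without new protein synthesis. Glucocorticoids bind the mineralocorticoid and glucocorticoid receptors, which are abundant in the hippocampus, and the glucocorticoid receptor then moves to the nucleus and turns on its own targets on a slower course. Many genes of both programs encode inhibitors of the pathway that induced them, such as phosphatases that switch off MAP kinases.

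The values come as group means, so no value of a single library is given and the spread between mice enters through the authors' p-values. The mean estimated counts of the genes summed to 20.8M in Homecage and 21.4M in Swim (M, mega). An estimated count is the authors' estimate of the reads that belong to a gene and need not be a whole number. The deposited fold changes include a scaling made by the authors and so differ slightly from the ratio of the printed means. Every fold change and adjusted p below is the value in the authors' deposited table for the groups named, fold changes are on the log2 scale, where 1 is a doubling, and a gene is called where that adjusted p is under 0.05. The standard error (SE) beside a log2 fold change was derived from it and its p-value. With genes divided into 4 equal bins by mean count, the median SE fell from 0.17 in the lowest bin to 0.079 in the highest. A gene of median SE therefore needed an absolute log2 fold change of 0.65 in the lowest bin and 0.295 in the highest to be called.

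After Swim, 54 of 13686 genes (0.395%) were called in the authors' deposited table. Of these, 46 rose (0.336% of genes tested) and 8 fell (0.0585%). The risen genes included immediate early transcription factors, inhibitors of MAP kinase and CREB signalling, and known targets of the glucocorticoid receptor. Their log2 fold changes ran from 0.30 for Rasl11b, a Ras-like GTPase, to 2.05 for Egr2, with a median of 0.66 (1.58-fold), and 11 rose at least 2-fold. The fallen genes included Hes5, a transcriptional repressor downstream of Notch, and 3 zinc finger genes, with a median of -0.50 and 3 genes lower by at least 2-fold. Across all genes the median log2 fold change was 0.0038 and the middle 50% of genes lay between -0.08 and 0.09. Before adjustment, 711 genes (5.20%) had a p-value under 0.05. Just outside the threshold, with an adjusted p of 0.05 to 0.1, lay 6 higher genes (Gm14435, Gjb6, Irs2, Pnpla2, Epha2 and Gimap6) and 2 lower ones (Gmnc and Gvin1).

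**Figure D1:**
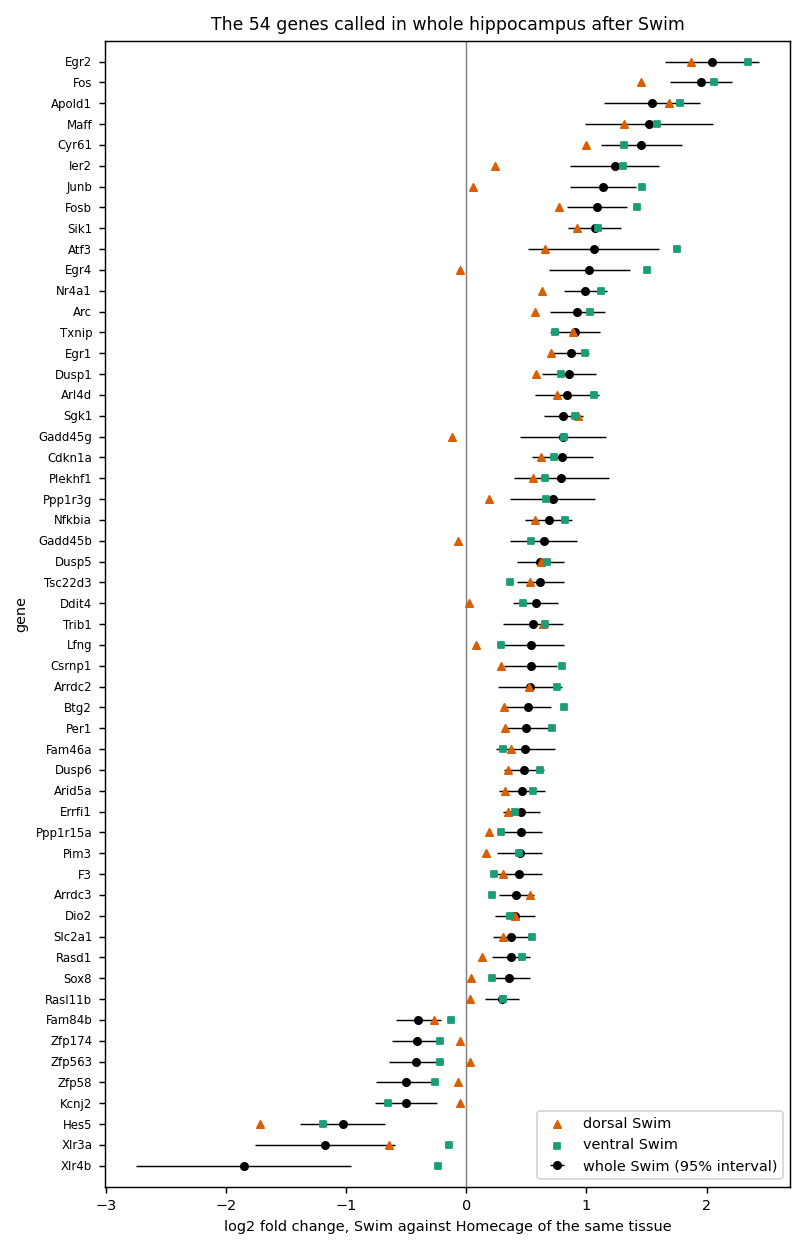
Log2 fold change (x axis) of the 54 genes called after Swim in whole hippocampus (rows), as black points with 95% intervals from the derived SE. Triangles and squares give the same genes in dorsal and ventral hippocampus after Swim, each against its own Homecage group (Xlr4b has no dorsal value). Egr2, Fos, Apold1 and Maff head the risen genes, and for Junb, Egr4, Gadd45b, Gadd45g and Ddit4 the dorsal triangle lies near 0.

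Immediate early transcription factors were the pathway list with the most risen genes, among lists written with earlier results of these data known. Of 26 listed genes 25 were measured, and 11 of them rose and none fell, where 0.336% of all genes rose. Above 0 lay 23 of the 25, and the median log2 fold change was 0.50, against 0.0038 over all genes tested. The AP-1 subunit Fos, a widely used marker of recent neuronal activity, went from a mean of 102.4 estimated counts in Homecage to 409.8 in Swim, a log2 fold change of 1.95 (SE 0.13, adjusted p = 4.27e-45) in the authors' deposited table. Its relative Fosb went from 108.4 to 236.2 (1.08, SE 0.13) and Junb, which pairs with both, from 318.2 to 717.0 (1.14, SE 0.14). The AP-1 partners Jun and Jund are also on the list but were not called. Jun, at 1529 and 1585 mean counts, had a log2 fold change of 0.02 (SE 0.11), and Jund had 0.50 (SE 0.16, adjusted p = 0.331 in the authors' deposited table).

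Zinc finger factors of the Egr family bind GC-rich promoters and link activity to later gene expression. Egr1 went from a mean count of 1481 to 2775 (0.87, SE 0.08, adjusted p = 1.98e-26 in the authors' deposited table). Egr2 went from 20.8 to 88.8, which gave the highest log2 fold change among all called genes (2.05, SE 0.20). Egr4 went from 92.4 to 192.0 (1.02, SE 0.17). The orphan nuclear receptor Nr4a1, which acts without a known hormone, went from 783.8 to 1605 (0.99, SE 0.09). Npas4, a factor tied to calcium entry in neurons, had a log2 fold change of 0.50 but a wide error (SE 0.18, mean counts 169.4 and 241.2) and was not called, with an adjusted p of 0.626 in the authors' deposited table.

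The list held 4 other risen regulators of transcription and mRNA. Ier2, a nuclear early response protein, went from a mean count of 39.4 to 95.2 (1.23, SE 0.19). Maff, a small Maf protein of the basic leucine zipper class, went from 9.2 to 27.2 (1.52, SE 0.27), and Atf3, a stress-induced member of the ATF/CREB class, from 14.6 to 31.6 (1.06, SE 0.28, adjusted p = 0.0348 in the authors' deposited table). Maff and Atf3 thus rest on few reads. Btg2, an antiproliferative protein that recruits the mRNA deadenylation complex, went from 314.6 to 461.4 (0.52, SE 0.10).

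Promoters of 3 strongly risen transcription factors are shown because the calcium-responsive factor CREB binds the cyclic AMP response element (CRE) TGACGTCA or the short form TGACG, and serum response factor binds the CArG box. The sequences are the 250 bases before the annotated start in RefSeq on GRCm38.p6, read 5′ to 3′ on the gene's strand. Fos lies at chr12:85473640-85473889 (plus strand), Egr2 at chr10:67537619-67537868 (plus strand, 1 of 5 annotated windows) and Nr4a1 at chr15:101266596-101266845 (plus strand). Capitals mark the short form of the CRE on either strand and, in Egr2, also the CArG box.
Fos: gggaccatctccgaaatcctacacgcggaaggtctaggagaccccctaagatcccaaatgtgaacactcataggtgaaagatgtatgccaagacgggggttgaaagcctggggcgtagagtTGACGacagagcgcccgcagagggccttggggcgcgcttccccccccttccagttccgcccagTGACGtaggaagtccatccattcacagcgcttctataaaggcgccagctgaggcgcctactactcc
Egr2: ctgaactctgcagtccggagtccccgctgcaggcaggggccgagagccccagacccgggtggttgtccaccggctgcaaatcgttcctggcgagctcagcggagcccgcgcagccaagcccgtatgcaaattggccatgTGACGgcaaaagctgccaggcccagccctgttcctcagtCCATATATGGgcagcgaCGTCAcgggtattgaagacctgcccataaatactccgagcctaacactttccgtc
Nr4a1: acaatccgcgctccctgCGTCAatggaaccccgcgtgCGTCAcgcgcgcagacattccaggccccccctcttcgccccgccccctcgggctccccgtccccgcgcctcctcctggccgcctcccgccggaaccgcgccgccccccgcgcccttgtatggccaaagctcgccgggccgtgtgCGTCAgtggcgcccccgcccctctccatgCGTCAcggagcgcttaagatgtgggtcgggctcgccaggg
In Fos the short CREs start 129 and 66 bases before the annotated start. In Egr2 a short CRE starts 111 bases and another, on the opposite strand, 55 bases before the start, with the CArG box 72 bases before it. Nr4a1 holds 4 short CREs, all on the opposite strand, of which the nearest starts 40 bases before the annotated start.

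The reference table had a promoter for 40 of the 46 risen genes and for 7 of the 8 fallen ones. At least 1 full CRE was found in 7 of the 40 risen genes (17.5%), against 3.01% of 10726 tested genes with a promoter and 1.77% of all 27025 genes in the reference table. The short CRE, which every full CRE also contains, was found in 23 of 40 (57.5%), against 29.96% of tested genes and 19.8% of all. A CArG box was found in 2 of 40 (5%), against 1.38% of tested genes. The AP-1 motif TGANTCA was found in 2 of 40 (5%), against 5.40% of tested genes, and the E-box CACGTG in 9 of 40 (22.5%), against 9.85%. These are shares of letter matches on either strand, genes with several annotated starts had more than 1 chance to match, and no test was made.

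Genes that act at the synapse or on growth signalling rose beside the transcription factors. Of 31 measured activity-regulated effectors 7 rose and none fell, where 0.336% of all genes rose, and the list median was 0.12. Arc, a dendritic protein that removes AMPA receptors from the synapse, went from a mean count of 1480.0 to 2893 (0.92, SE 0.12, adjusted p = 3.42e-12 in the authors' deposited table). The stress sensors Gadd45b and Gadd45g went from 110.6 to 178.0 (0.64, SE 0.14) and from 107.2 to 192.2 (0.81, SE 0.18). Arl4d, a small GTPase of the ARF class, rose by 0.84 (SE 0.14), and Trib1, a pseudokinase that directs proteins to degradation, by 0.56 (SE 0.13), both in the authors' deposited table.

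A few inhibitors of MAP kinase and growth factor signalling rose. In the list of MAP kinase phosphatases and feedback inhibitors, 4 of 19 measured genes rose and none fell, where 0.336% of all genes rose. The list median was only 0.03. Dusp1, a nuclear phosphatase that inactivates MAP kinases, went from a mean count of 214.8 to 400.2 (0.86, SE 0.11, adjusted p = 5.02e-11 in the authors' deposited table). The ERK-directed phosphatases Dusp5 and Dusp6 rose by 0.62 (SE 0.10) and 0.48 (SE 0.08), and Errfi1, an inhibitor of the epidermal growth factor receptor, by 0.46 (SE 0.08). Next in the list came Dusp4, at 0.24 (SE 0.10, adjusted p = 0.819 in the authors' deposited table), which was not called.

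Dusp1 had a full CRE, and its promoter (chr17:26508473-26508722, minus strand, GRCm38.p6, RefSeq) is printed to show it beside a separate short CRE, both in capitals.
Dusp1: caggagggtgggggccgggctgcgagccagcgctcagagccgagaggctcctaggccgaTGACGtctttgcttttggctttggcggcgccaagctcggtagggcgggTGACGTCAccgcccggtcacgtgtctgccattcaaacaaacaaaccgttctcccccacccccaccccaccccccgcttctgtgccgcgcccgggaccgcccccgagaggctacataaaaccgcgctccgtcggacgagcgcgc
The CRE starts 143 bases and the separate short CRE 191 bases before the annotated start. Sik1, a kinase that exports the CREB coactivators from the nucleus and so ends CREB-driven transcription, went from a mean count of 147.6 to 317.4 (1.07, SE 0.11, adjusted p = 3.51e-18 in the authors' deposited table). It was the only called gene among 20 measured members of the list of salt-inducible kinases and the CREB circuit, where the lowest p-values after it belonged to Pde4b (0.14, SE 0.07) and Crtc2 (-0.21, SE 0.13), both with an adjusted p of 0.819.

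Among 33 measured targets of the glucocorticoid receptor, 9 rose and none fell, where 0.336% of all genes rose. The list median was 0.27 and 30 of 33 members lay above 0, but some members, such as Dusp1 and Per1, are also early genes of neuronal activity. In whole Restraint and whole Handling, against the same Homecage group, 12 and 10 of the 33 rose, and 32 and 31 lay above 0. Sgk1, a kinase that adjusts ion channels and transporters under corticosteroids, went from a mean count of 1079 to 1927 (0.81, SE 0.08, adjusted p = 9.28e-19 in the authors' deposited table). Tsc22d3, which encodes the anti-inflammatory leucine zipper protein GILZ, went from 1069.6 to 1676 (0.62, SE 0.10). Nfkbia, the inhibitor that holds NF-kB in the cytoplasm, went from 258.6 to 425.4 (0.69, SE 0.10), and was the only called gene among 16 measured NF-kB factors and inhibitors.

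Further risen members of the glucocorticoid list act on growth and the clock. The cell cycle inhibitor Cdkn1a rose by 0.80 (SE 0.13) and Ddit4, an inhibitor of the growth kinase mTORC1, by 0.58 (SE 0.10) in the authors' deposited table. Per1, a repressor within the circadian clock, went from a mean count of 1362 to 1961 (0.50, SE 0.09) and was the only called gene among 22 measured clock genes. Bhlhe40, another repressor of the clock, had 0.26 (SE 0.08, adjusted p = 0.123 in the authors' deposited table). Fkbp5, a chaperone that dampens glucocorticoid receptor signalling, had mean counts of 1436 and 1538 (0.07, SE 0.07, adjusted p = 0.853 in the authors' deposited table).

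None of 17 measured corticosteroid receptors and regulators was called, where 0.395% of all genes were. The glucocorticoid receptor gene Nr3c1 had mean counts of 1952 and 2038 (0.03, SE 0.08), and the mineralocorticoid receptor gene Nr3c2 had 4010.0 and 3813 (-0.10, SE 0.09). The 95% intervals were -0.12 to 0.17 for Nr3c1 and -0.28 to 0.07 for Nr3c2. Crh, the releasing hormone of the stress axis, was low at 20.6 and 28.8 mean counts and was not called (0.45, SE 0.22, adjusted p = 0.819 in the authors' deposited table).

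Sgk1 was the only tested gene with a promoter whose window held the glucocorticoid response element searched here, AGAACA and TGTTCT with any 3 bases between them. Its window (chr10:21993640-21993889, plus strand, 1 of 6 annotated windows of Sgk1, RefSeq, GRCm38.p6) is printed with the element in capitals, 189 bases before the annotated start. This strict form matched 1 of 10726 tested genes, and targets bound at a distance or at looser matches are not covered by it.
Sgk1: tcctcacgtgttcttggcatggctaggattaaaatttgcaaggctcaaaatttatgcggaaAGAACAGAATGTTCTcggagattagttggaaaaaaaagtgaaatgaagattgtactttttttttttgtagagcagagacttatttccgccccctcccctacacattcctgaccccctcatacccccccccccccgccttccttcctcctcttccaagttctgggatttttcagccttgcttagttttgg

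Some genes that set glucose use rose. Of 19 measured alpha-arrestins and glucose-responsive genes 4 rose and none fell, where 0.336% of all genes rose, and the list median was 0.11. Txnip, an alpha-arrestin that binds thioredoxin and lowers glucose uptake, went from a mean count of 336.6 to 648.2 (0.91, SE 0.10, adjusted p = 8.95e-15 in the authors' deposited table). The related adaptors Arrdc3 and Arrdc2, which help to sort membrane proteins, went from 895.6 to 1219 (0.42, SE 0.07) and from 146.6 to 216.0 (0.53, SE 0.14). Slc2a1, the glucose transporter of the blood-brain barrier and of glia, went from 1282 to 1694 (0.38, SE 0.08). Arrdc2 had an adjusted p of 0.026 in the authors' deposited table and lost its call when the trend with GC content or with transcript length was subtracted.

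Txnip is a known target of the glucose-sensing factor ChREBP and its partner Mlx, which bind paired E-box-like elements. The Txnip window (chr3:96557707-96557956, plus strand, RefSeq, GRCm38.p6) is printed with 2 copies of CACGAG with any 5 bases between them in capitals, 85 bases before the annotated start. This motif was added after the results were seen, and Txnip was the only gene of the reference table that held it. The letters searched are 1 exact form of such elements, so the single match does not show that Txnip differs from other genes.
Txnip: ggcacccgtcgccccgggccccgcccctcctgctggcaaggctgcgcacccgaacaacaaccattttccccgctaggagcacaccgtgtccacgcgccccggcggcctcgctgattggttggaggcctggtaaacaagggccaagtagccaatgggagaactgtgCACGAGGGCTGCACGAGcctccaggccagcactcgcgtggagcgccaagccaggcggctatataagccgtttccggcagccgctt
Other called genes touch metabolism. Dio2, which converts thyroxine to the active thyroid hormone, went from a mean count of 1106 to 1505 (0.41, SE 0.08, adjusted p = 0.000583 in the authors' deposited table), the only call among 17 measured genes of thyroid hormone response. Ppp1r3g, a glycogen-targeting subunit of protein phosphatase 1, rose by 0.72 (SE 0.18), and Ppp1r15a, which directs the same phosphatase to the translation factor eIF2alpha, by 0.45 (SE 0.09).

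Hes5 was the fallen gene with the lowest adjusted p. It went from a mean count of 112.2 in Homecage to 56.4 in Swim, a log2 fold change of -1.03 (SE 0.18, adjusted p = 6.34e-06) in the authors' deposited table, and it was the only fallen gene with an adjusted p under 0.01. Notch receptors release a fragment that joins the DNA-binding protein RBPJ and turns on Hes genes, which repress neuronal differentiation. In the Notch list 1 of 30 measured genes rose and 1 fell, where 0.336% of all genes rose and 0.0585% fell. The list median was 0.02. The risen member was Lfng, a glycosyltransferase that modifies Notch receptors, at 224.4 and 332.4 mean counts (0.54, SE 0.14, adjusted p = 0.0247 in the authors' deposited table). The call of Lfng was lost when the GC trend was subtracted. Hes1, the other main Hes gene of the pathway, had 0.22 (SE 0.13) and was not called.

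The Hes5 window (chr4:154960673-154960922, plus strand, RefSeq, GRCm38.p6) is printed to show the binding letters of RBPJ, GTGGGAA on either strand, in capitals, with a CArG box match nearer the start also in capitals. RBPJ letters start 226 and 83 bases and the CArG match 33 bases before the annotated start. The RBPJ motif was added after the results were seen, and it occurred in 6.54% of tested genes with a promoter.
Hes5: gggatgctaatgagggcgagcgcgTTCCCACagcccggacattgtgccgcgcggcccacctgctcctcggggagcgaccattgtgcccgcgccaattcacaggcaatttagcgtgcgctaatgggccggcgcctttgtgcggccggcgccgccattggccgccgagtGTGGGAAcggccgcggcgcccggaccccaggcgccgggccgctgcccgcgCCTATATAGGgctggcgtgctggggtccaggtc

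Early genes known from blood vessels were among the strongly risen ones. Of 18 measured endothelial and shear-responsive genes 3 rose and none fell, where 0.336% of all genes rose, and the list median was 0.16. Apold1, an early gene of endothelial cells, went from a mean count of 46.4 to 137.4 (1.55, SE 0.20, adjusted p = 5.02e-11 in the authors' deposited table). Cyr61, a secreted matrix protein induced by mechanical strain, went from 44.0 to 123.4 (1.46, SE 0.17), and Csrnp1, a nuclear early gene, from 139.8 to 207.4 (0.54, SE 0.11). Klf4, a factor of quiescent endothelium, had 0.55 (SE 0.16, adjusted p = 0.123) and Sox18, an endothelial identity factor, had -0.51 (SE 0.15, adjusted p = 0.176), and neither was called in the authors' deposited table. The 16 endothelial identity markers, among them Cdh5 and Pecam1, had a median of -0.13 with 2 of 16 above 0 and none called. Their summed level was 359.9 in Homecage and 324.4 CPM in Swim, which are counts scaled to a common total, and the part of this in the values of the early genes was not tested.

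The other risen genes belong to none of the lists. Pim3, a survival kinase, rose by 0.44 (SE 0.09) and Rasd1, a Ras-like protein induced by dexamethasone, by 0.37 (SE 0.08) in the authors' deposited table. F3, the tissue factor that starts coagulation and is made by astrocytes in brain, went from a mean count of 629.6 to 872.2 (0.44, SE 0.10). Arid5a, a DNA- and RNA-binding protein, rose by 0.46 (SE 0.10), Fam46a by 0.49 (SE 0.13) and Plekhf1 by 0.79 (SE 0.20). Sox8, a glial transcription factor, went from 543.0 to 714.4 (0.36, SE 0.09, adjusted p = 0.0132 in the authors' deposited table). Sox8 lost its call when either the GC or the length trend was subtracted, and Ppp1r3g and Rasl11b lost theirs with the GC trend.

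The fallen genes beside Hes5 all had an adjusted p above 0.01. Kcnj2, an inwardly rectifying potassium channel that holds the resting potential, went from a mean count of 285.8 to 204.6 (-0.50, SE 0.13, adjusted p = 0.0325 in the authors' deposited table). The zinc finger genes Zfp58, Zfp174 and Zfp563 fell by 0.50, 0.41 and 0.42, and Fam84b by 0.40, with adjusted p from 0.0112 for Fam84b to 0.0437 for Zfp563. Xlr4b and Xlr3a, genes of an X-linked multigene family, went from 20.9 to 5.83 (-1.85, SE 0.46) and from 37.7 to 16.9 (-1.18, SE 0.30) in the authors' deposited table. Xlr and Zfp genes have near-identical copies or relatives among which reads can be split, so these values are uncertain. After subtraction of the GC trend the calls of Kcnj2, Zfp58, Zfp174 and Zfp563 were lost, and after subtraction of the length trend those of Fam84b, Kcnj2 and Zfp174. The log2 fold changes with the GC trend subtracted were -0.43 for Kcnj2, -0.44 for Zfp58, -0.38 for Zfp174 and -0.35 for Zfp563. Of the 8 fallen genes 4 remained with the GC trend subtracted, where Sox18 was called as well, and 5 remained with the length trend subtracted.

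**Figure D2:**
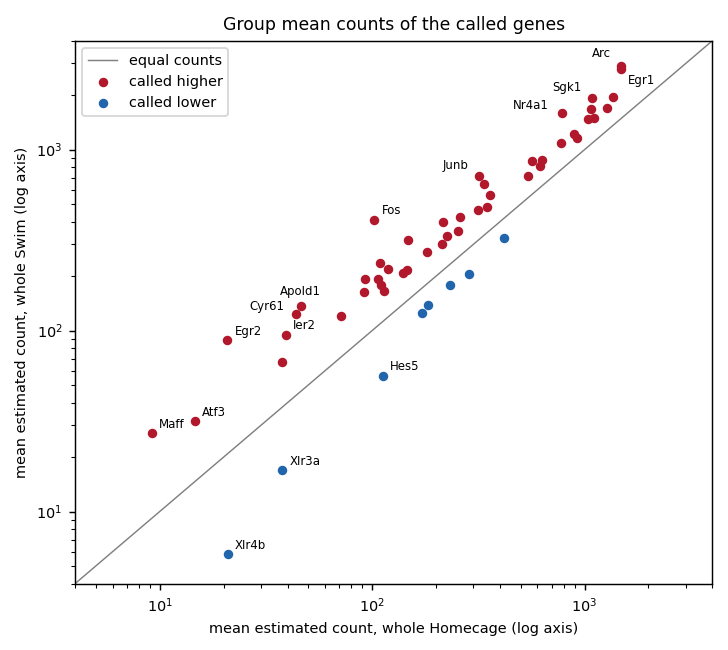
Mean estimated count of each called gene in whole Homecage (x axis, log scale) and whole Swim (y axis, log scale), with risen genes in red, fallen genes in blue and the line of equal counts in grey. Egr1 and Arc start at 1481 and 1480.0 counts, and Maff, Atf3 and Egr2 at 9.2, 14.6 and 20.8, all above the line in Swim.

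Several lists written for stress held no or few calls. As 0.395% of all genes were called, a list of this size without a call is no result about its members. None of 31 measured heat shock and chaperone genes was called, although 26 lay above 0 (median 0.16), and Hspa1b, an inducible heat shock protein, had 0.32 (SE 0.17). Above 0 lay 26 of 31 in whole Restraint and 27 in whole Handling, against the same Homecage group, 23 in dorsal Swim and 19 in ventral Swim. None of 14 cold-shock and temperature-responsive RNA-binding genes was called (median -0.09). Of 21 hypoxia-inducible genes 2 rose, Ddit4 and Slc2a1, and the median was 0.03. Adm, a vasodilator peptide precursor on the hypoxia and endothelial lists, had mean counts of 12.8 and 24.6 (0.89, SE 0.27, adjusted p = 0.165 in the authors' deposited table). In the BTG, TOB and IER list 3 of 17 rose, all of them described above. The 24 cholesterol synthesis genes and the 22 imprinted genes held no call, with medians of 0.04 and 0.05. Among the imprinted genes Ndn, a growth-restraining neuronal protein, had -0.54 (SE 0.16, adjusted p = 0.171 in the authors' deposited table).

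Some lists without a call lay to 1 side of 0. All 30 splicing factors and CLK kinases were below 0 (median -0.20), led by Clk1, a kinase of splicing factors, at 2457 and 1560.2 mean counts (-0.68, SE 0.21, adjusted p = 0.196 in the authors' deposited table). Of 79 cytosolic ribosomal protein genes 78 were above 0 (median 0.21), as were 74 of 75 nuclear genes of the respiratory chain (0.16) and all 31 proteasome subunits (0.10), while the 13 mitochondrially encoded genes had a median of -0.01. Of 35 glutamate and GABA receptors 28 were below 0 (-0.05), and of 21 neuropeptide precursors 20 were above 0 (0.14). Many ribosomal protein genes have processed copies that can share their reads. In dorsal and ventral hippocampus after Swim the medians were 0.05 and -0.07 for the splicing list, and -0.06 and 0.00 for the ribosomal list. There 23 and 11 of 35 receptors lay above 0. In whole Restraint and whole Handling, against the same Homecage group, 69 and 53 of 79 ribosomal genes lay above 0. So did 61 and 52 of 75 respiratory chain genes, 24 and 25 of 31 proteasome subunits, and 15 and 11 of 21 neuropeptide precursors. Above 0 were also 8 and 16 of 30 splicing genes and 5 and 7 of 35 receptors.

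**Figure D3:**
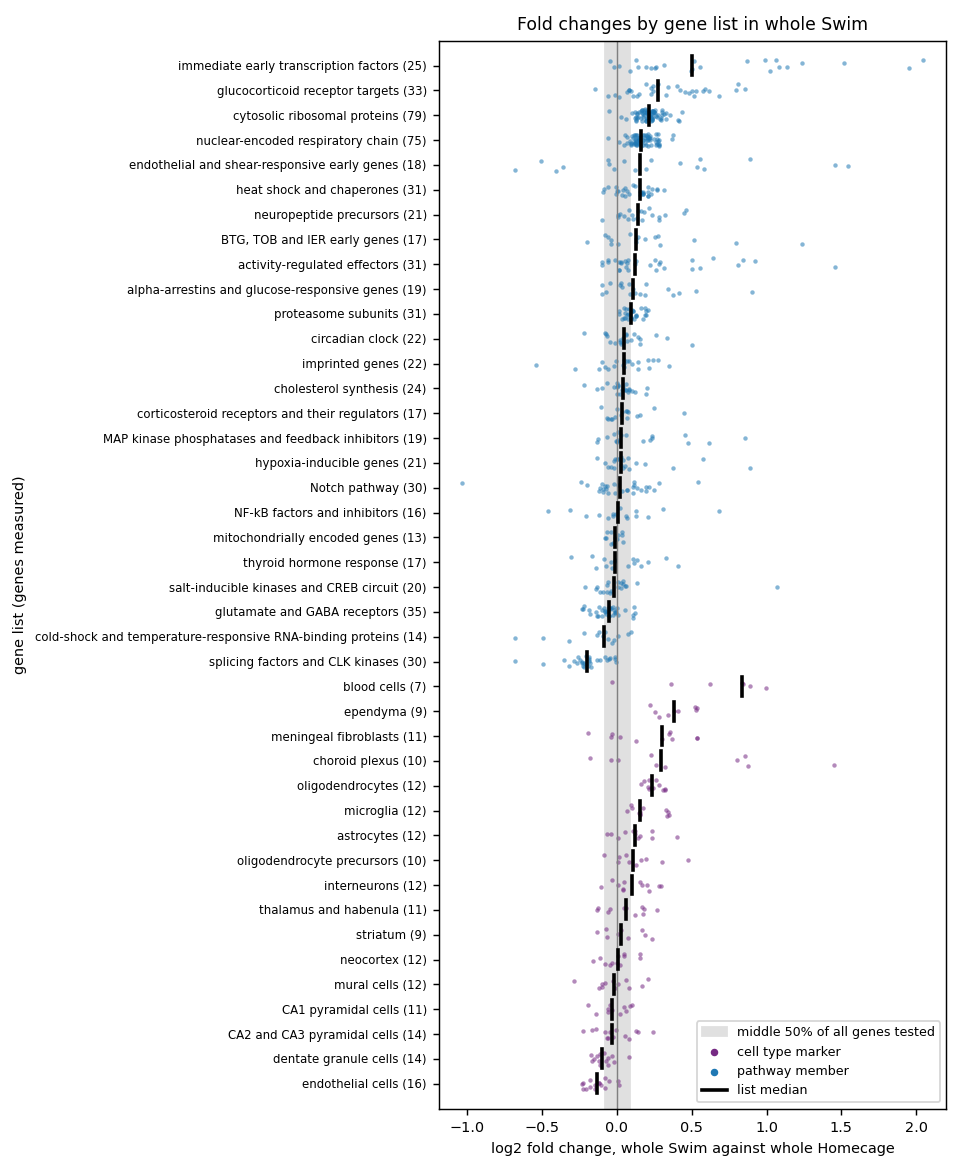
Log2 fold change after Swim in whole hippocampus (x axis) of every measured member of the 25 pathway lists (blue) and 17 cell type marker lists (purple), with the list median as a black bar and the middle 50% of all genes in grey. Immediate early factors (median 0.50) and glucocorticoid receptor targets (0.27) lead the pathway lists, and splicing factors (-0.20) lie lowest among them.

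Fold changes in whole Swim followed transcript length across all genes. Genes were divided into 10 bins of equal size by length. In the bin with the shortest transcripts (195 to 795 bases) the median log2 fold change was 0.06 and 68.9% of genes lay above 0, and in the longest bin (5118 to 123179 bases) it was -0.06 with 25.9% above 0. Spearman's rho of fold change with length was -0.298 over the 13658 genes with a length, and with GC content it was 0.295, where all genes share the same 10 libraries. The rho with length was -0.149 in whole Restraint, -0.045 in whole Handling, 0.189 in dorsal Swim and -0.094 in ventral Swim. Ribosomal protein genes have short transcripts, with a median of 696.5 bases against 2314 over all genes. With the length trend subtracted their median was 0.16, that of the respiratory chain genes 0.10, and that of the splicing list -0.19. What moves the fold changes with length was not tested.

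**Figure D4:**
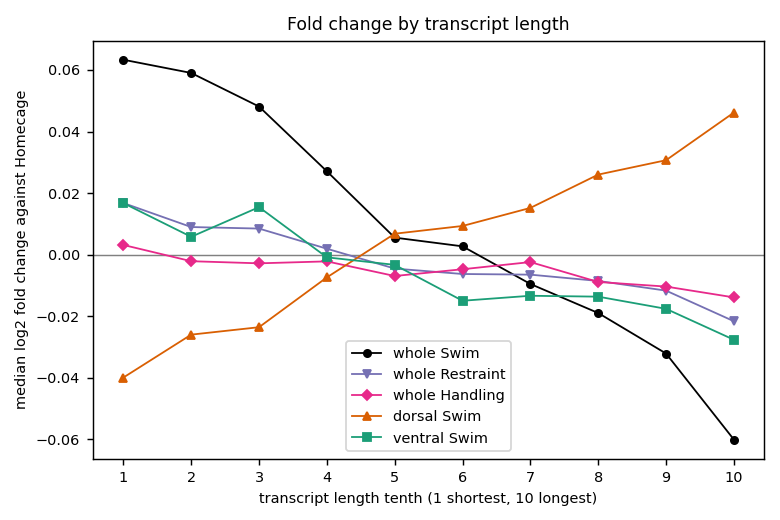
Median log2 fold change against Homecage (y axis) in 10 equal bins of genes by transcript length (x axis, 1 shortest, 10 longest), with 1 line per comparison. Whole Swim falls from 0.06 to -0.06, and dorsal Swim runs the opposite way, from -0.04 to 0.05.

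Marker lists of hippocampal and other cell types were compared between the groups. Markers of CA1, of CA2 and CA3, and of dentate granule cells were all present, with summed levels of 1127, 593.1 and 1182 CPM in Homecage. Lists for neocortex, thalamus and habenula, and striatum summed to 671.1, 191.5 and 188.5 CPM there, and sums of different genes do not compare cell numbers. No marker list had a called member, where 0.395% of all genes were called. In bulk tissue fewer cells of a type and less RNA per cell cannot be told apart. All 12 oligodendrocyte markers, such as the myelin genes Mbp and Mobp, were above 0 (median 0.24), with a summed level of 3699.7 in Homecage and 4517 in Swim. All 12 microglial markers were above 0 (median 0.15), 10 of 12 astrocyte markers (median 0.12) and 1 of 14 dentate granule markers (median -0.10). In dorsal and ventral Swim the medians were 0.26 and -0.004 for oligodendrocytes, -0.09 and -0.003 for microglia, and 0.06 and -0.02 for astrocytes. For dentate granule markers they were -0.005 and -0.01 there. Whole Swim medians were -0.03 for CA1, -0.03 for CA2 and CA3, 0.10 for interneurons, 0.11 for oligodendrocyte precursors and -0.02 for mural cells. The lists for other brain regions had medians of 0.06 (thalamus and habenula), 0.01 (neocortex) and 0.03 (striatum).

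Markers of blood and of tissues next to the hippocampus lay mostly above 0, though none was called. The 7 measured blood cell markers of 10, mostly globin genes that share reads with their copies, had a median of 0.84 and a summed level of 207.1 and 391.2 CPM. Their median was 0.57 in whole Restraint and 0.48 in whole Handling, against the same Homecage group. In dorsal and ventral Swim it was -0.34 and -0.45. The 10 measured choroid plexus markers of 17 had a median of 0.29, with Ttr, the plexus transporter of thyroxine, at 341.4 and 1003 mean counts (1.45, SE 0.44, adjusted p = 0.206 in the authors' deposited table). Ependymal and meningeal lists had medians of 0.38 (9 of 9 above 0) and 0.30 (8 of 11 above 0). In whole Restraint, whole Handling, dorsal Swim and ventral Swim, choroid plexus medians were 0.24, 0.22, 0.24 and 0.18. In the same order they were 0.13, -0.06, 0.18 and 0.29 for ependyma, and 0.34, -0.06, 0.15 and -0.16 for meninges. None of these markers is among the 54 called genes. The part of these cell types in the list medians above was not tested.

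Most genes that rose in whole hippocampus also rose in the ventral part. Dorsal and ventral tables rest on other libraries than the whole table, and the labels do not tie them to the same mice. In ventral Swim, where 955 genes were called (6.94%) and 640 of them rose (4.65% of genes tested), 42 of the 46 genes were among them, which is 91.3% of the whole list and 6.56% of the ventral list, and all 46 had the same sign. In dorsal Swim, where 49 genes rose (0.359%), 23 of the 46 were among them (50% of the whole list and 46.9% of the dorsal list), and 43 had the same sign. These 23 genes rose in all 3 tissue samples and include Fos, Fosb, Egr1, Egr2, Nr4a1, Sik1, Dusp1, Sgk1, Tsc22d3, Nfkbia, Txnip and Apold1. Ppp1r15a, Sox8, Lfng and Fam46a were called in whole hippocampus and in neither part. All 4 lay above 0 in both parts, from 0.21 to 0.31 in ventral and from 0.04 to 0.38 in dorsal Swim. Of the 8 fallen genes, Hes5 also fell in dorsal Swim, 1 of 12 fallen there (0.0879%), and Hes5 and Kcnj2 in ventral Swim, 2 of 315 (2.29%).

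A further 19 genes rose in whole and ventral but passed no threshold in dorsal hippocampus. Among them, Junb had a log2 fold change of 1.46 in ventral and 0.06 in dorsal Swim, Egr4 1.504 and -0.05, and Ier2 1.31 and 0.24, all in the authors' deposited tables. Computed from the authors' deposited tables, the difference between whole and dorsal was 1.08 for Junb (95% interval 0.56 to 1.59, adjusted p = 0.208 over 13530 genes with Benjamini-Hochberg adjustment). Across genes, Spearman's rho of fold change with GC content was -0.601 in dorsal and 0.699 in ventral Swim, so the trends ran in opposite directions. With each table's own trend subtracted, Junb had 1.21 in ventral and 0.31 in dorsal Swim, Egr4 1.10 and 0.40, and Ier2 1.09 and 0.43, so these values lay closer together than those deposited. No gene passed the test of the difference between whole and dorsal (0 of 13530, with 1366 or 10.1% under an unadjusted p of 0.05), or between whole and ventral (0 of 13603, with 942 or 6.92%). On simulated data this test found 94% of differences of 1 log2 unit from dorsal and 92.5% from ventral, but 45% and 67% of differences of 0.5. Those data held many genes with the same size of difference and no GC trend. Where few genes differ, the adjusted threshold is harder to reach and smaller shares are found.

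Restraint and Handling were compared with Swim in whole hippocampus. All 3 treatments were set against the same Homecage libraries, so their fold changes share that group's errors and are given side by side. Whole Restraint had 69 risen (0.504%) and 5 fallen genes (0.0365%), and whole Handling 50 (0.366%) and 4 (0.0293%). Of the measured immediate early transcription factors, 11 of 25 rose in Swim, 14 of 25 in Restraint and 12 of 24 in Handling. Of 33 glucocorticoid receptor targets, 9 rose in Swim, 12 in Restraint and 10 in Handling. Among the activity genes, Fos had log2 fold changes of 1.95 in Swim, 1.92 in Restraint and 1.90 in Handling in the authors' deposited tables, Egr1 0.87, 0.75 and 0.95, and Arc 0.92, 0.84 and 1.22.

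Txnip was the 1 gene that passed the test of the difference between Swim and Handling (1 of 13620 genes, 0.00734%, with 362 or 2.66% under an unadjusted p of 0.05). Its log2 fold change was 0.91 in Swim, 0.61 in Restraint and 0.21 in Handling in the authors' deposited tables. The difference between Swim and Handling, computed from the authors' deposited tables, was 0.70 (SE 0.15, 95% interval 0.41 to 0.99, Benjamini-Hochberg adjusted p = 0.0376). The adjustment covered the genes of this comparison and not the other difference tests. Next in the same comparison of the authors' deposited tables came Hes5, with -1.03 in Swim and 0.04 in Handling (difference -1.07, adjusted p = 0.0816), Nfkbia with 0.69 and 0.14 (difference 0.55, adjusted p = 0.0846) and Clk1 with -0.68 and 0.26 (difference -0.93), none of which passed the threshold. The summed error used here counts the shared Homecage group in both tables and so makes the test conservative. On simulated data with many differing genes and no shared Homecage group, it found 90% of differences of 1 log2 unit and 58% of 0.5. With few differing genes these shares would be lower.

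No gene passed the test of the difference between Swim and Restraint (0 of 13641, with 92 or 0.674% under an unadjusted p of 0.05). From the authors' deposited tables the lowest p belonged to Klf2, a factor induced by shear stress in endothelium, with 0.42 in Swim and 1.47 in Restraint (difference -1.05, 95% interval -1.54 to -0.55, Benjamini-Hochberg adjusted p = 0.489). Apold1 had 1.55 and 2.41 (difference -0.87, interval -1.42 to -0.32), and Klf4 had 0.55 and 1.23 (difference -0.68, interval -1.08 to -0.28). Arrdc3 went the other way, with 0.42 in Swim and 0.15 in Restraint (difference 0.27, interval 0.09 to 0.45). These genes were picked for having the lowest of 13641 p-values, so an interval that leaves out 0 is no test of them, and none passed the adjusted threshold.

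**Figure D5:**
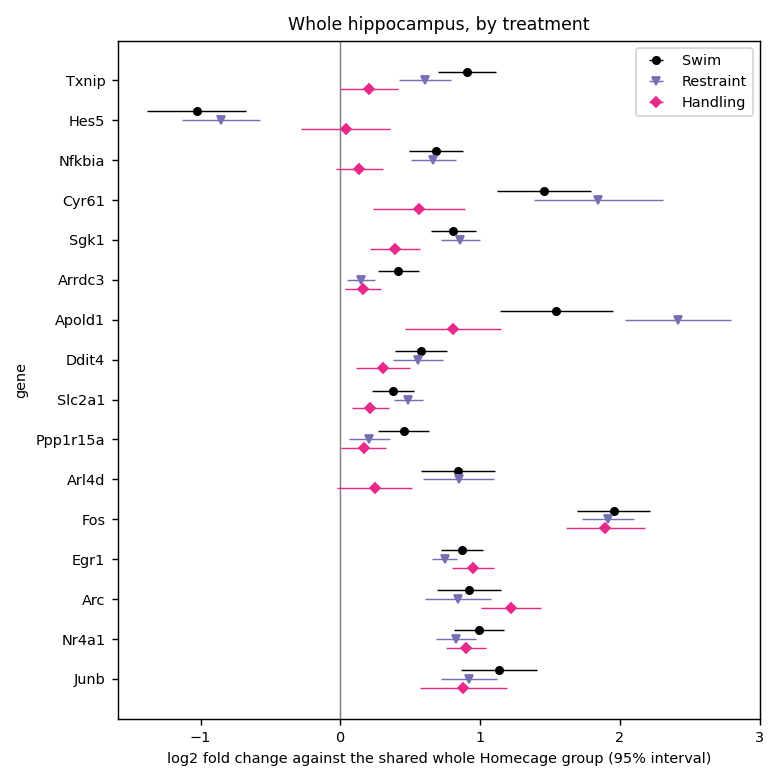
Log2 fold change against the shared whole Homecage group (x axis) of 16 genes (rows) after Swim, Restraint and Handling, with 95% intervals from the derived SE. The Swim and Handling intervals of Txnip, Hes5 and Nfkbia lie apart, while Fos sits at 1.90 to 1.95 in all 3 treatments.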

How the data were processed

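Poly(A)-enriched RNA of 10 libraries, 5 whole Homecage and 5 whole Swim, was compared, with 4 further deposited tables for reference. Per the file headers, the deposited tables give the mean estimated count of each group. Per the same headers, the deposited fold is a ratio of both groups, scaled by the authors, and is repeated as a deposited log2 value. Which test gave the authors' deposited p-value and its adjusted form is not given in the sources used here, nor are the aligner, the counting program and the use of strand. Bowtie 0.12.2 and mm8 appear in the submitters' processing notes, without a role. No value per library was used here. By the series' design each condition has 5 mice, and which spread the p-values measure depends on that unstated test, as do the derived SEs.

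For whole Swim, dropping 147 repeated entries left 13686 genes. Benjamini-Hochberg values recomputed from the deposited p-values equalled the deposited adjusted p. A derived SE divides the absolute log2 fold change by the normal quantile belonging to its p-value, and the 95% interval uses it. Differences between tables were divided by the root of the summed squared SEs, read against a normal distribution and, over all shared genes, adjusted by Benjamini-Hochberg. The procedure was tested on simulated data. CPM values are group means scaled to the group total. Trends on GC content and length of transcripts (GENCODE M21, GRCm38) were fitted by lowess with a fraction of 0.3. Promoters are RefSeq windows of 250 bases before the start, on GRCm38.p6. Python 3.11.15, pandas 2.3.3, scipy 1.17.1 and statsmodels 0.14.6 were used.

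Genes could be named if called in whole Swim, if among the 5 lowest p-values of a list or the 10 lowest of a difference test, or from a fixed set (Hes5, Ttr, Nr3c1, Nr3c2, Fkbp5, Sgk1, Per1, Fos, Egr1, Arc, Nr4a1 and Npas4). Jun, Hes1, Sox18 and the genes just outside the threshold were picked outside this rule, with their values already known. The lists, members and tests were chosen with earlier results of these data known. The planned count tests for tables with values per library were not needed. Alternatives were other thresholds, total-count scaling, a minimum of 100 for the sum of group means, both trends, and leaving out markers of neighbouring tissues.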

Additional observations from a re-analysis of the deposited data

Results flagged for a closer look

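Txnip was the 1 result that differed between treatments by a test of the difference itself. Its log2 fold change in whole hippocampus was 0.70 higher after Swim than after Handling (computed from the authors' deposited tables, SE 0.15, Benjamini-Hochberg adjusted p = 0.0376 over 13620 genes), from mean counts of 336.6 in Homecage and 648.2 in Swim. The adjustment was made within this comparison and not across the other difference tests. Single samples far from the others could not be looked for, because group means were used.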

How the results depend on the processing

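The 46 risen genes stayed within 38 and 52 under every alternative tried, and no called gene changed direction. Fallen genes were fewer: 1 of the 8 at a threshold of 0.01 (Hes5), 5 with the GC trend subtracted (4 of the 8, and Sox18) and 5 with the length trend subtracted. The difference between Swim and Handling was called for 0 genes at 0.01, 4 at 0.1, 2 with the GC trend subtracted and 2 with the length trend subtracted, against 1 as reported. The median of the mitochondrially encoded genes was 0.10 with the GC trend subtracted and -0.01 without, and these genes have a median GC content of 37.1%. Over single genes and alternatives, 385 values kept their side of the threshold and 30 lost their call. The 385 include 60 from a threshold of 0.1, which cannot end a call, and 59 from leaving out markers. They also include 60 from total-count scaling, which shifted every log2 fold change by only -0.008. Subtracting the GC trend ended 9 calls (Arrdc2, Kcnj2, Lfng, Ppp1r3g, Rasl11b, Sox8, Zfp174, Zfp563 and Zfp58), and subtracting the length trend ended 5 (Arrdc2, Fam84b, Kcnj2, Sox8 and Zfp174). A minimum of 100 removed Atf3, Maff, Xlr3a and Xlr4b from the genes tested. Leaving out markers of neighbouring tissues removed no called gene and moved no fold, so it tests nothing about their share in the calls. Beyond these constructions the cause was not tested. Low counts limit the rest: in the lowest of 4 bins of genes by mean count a log2 fold change under 0.65 was not detectable at the median SE. No paired analysis was possible because only group means were used, and leaving out each replicate was not run for the same reason.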

Other observations

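Zinc finger genes named Zfp lay mostly below 0 in whole Swim, a pattern looked for after 3 of them were seen among the fallen genes. Of 355 measured Zfp genes, 285 (80.3%) had a log2 fold change below 0, against 48.6% of all genes, and their median was -0.11. With the length trend subtracted the median was -0.09, and with the GC trend subtracted -0.08. In ventral Swim their median was -0.10 and in dorsal Swim 0.01, without the GC trend subtracted. In whole Restraint it was -0.03 and in whole Handling 0.00, with the same Homecage group. Over all genes with a GC content of 31.9% to 42.5%, the median was -0.13 in ventral and 0.11 in dorsal Swim. The called Zfp58 and Zfp563 lie in that range, at 42.1% and 40.5%, and Zfp174 has 45.7%. Whether the ventral median of the Zfp genes differs from that of other genes of like GC content was not tested. Many Zfp genes have close relatives that can share reads, and 3 were called lower and 0 higher in the authors' deposited table of whole Swim.

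Xlr3a and Xlr4b, 2 genes of the X-linked Xlr family, fell in whole Swim, and of their values in the other tables only that of Xlr4b in Handling was called. Xlr4b had log2 fold changes of -1.85 in whole Swim, -1.23 in whole Restraint and -2.59 in whole Handling in the authors' deposited tables, all against the same Homecage group, and -0.24 in ventral Swim. Its adjusted p in the authors' deposited tables was 6.07e-07 in Handling and 0.118 in Restraint. Xlr3a had -1.18, 0.13 and -0.86 in the same order, with adjusted p of 0.469 in Handling in the authors' deposited table, and -0.15 in ventral and -0.64 (SE 0.56) in dorsal Swim. The difference between both genes was not tested. Their mean counts in Homecage were only 20.9 and 37.7, and copies of the family can share reads.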
